A study of Mus musculus with 56 samples.

Results

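Alternative acceptor events of lengths other than 3 bases were examined in 11 junction-count tables from mouse tissues and a mouse cell line. Each event is a pair of competing 3' splice sites (acceptors) of 1 exon. The long form uses the upstream acceptor and keeps an extension at the start of the exon, and the short form uses the downstream acceptor. An event belonged here when the long exon exceeded the short exon by any length other than 3 bases. Of 2091 distinct alternative acceptor events in the tables, 1460 met this rule and 631 had an extension of 3 bases. Levels were taken where each set of a table averaged 20 or more junction reads a replicate, which 1161 of the 1460 events reached in at least 1 table. These 1161 events lay in 830 genes and formed 970 distinct acceptor pairs, because some pairs were listed with several upstream donors, and 108 pairs shared an acceptor with another pair. Such events share reads and are not independent. In cortex the event nearest above the minimum was a 4-base event of St6galnac6 with a mean of 20 reads in its lower set, and the nearest below was a 30-base event of Fnbp1 with 19.7.

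Mice labelled Fmr1 KO (knockout) and WT (wild type) gave 3 samples per genotype from each of 6 tissues, which were the brain regions cortex, hippocampus and cerebellum, and liver, muscle and testis. Fmr1 encodes FMRP, an RNA-binding protein that is missing or reduced in fragile X syndrome. N2a cells, a mouse neuroblastoma line, received a small interfering RNA, either siFmr1 (3 samples) or the non-targeting siNT (2 samples). In a second N2a experiment with 3 samples per group, the cells received siNT with the control plasmid (siNT_pcDNA), siFmr1 with it (siFmr1_pcDNA), siRNA against Mbnl1 with it (siMbnl1_pcDNA), siFmr1 with FLAG-tagged nuclear MBNL1 (siFmr1_nMBNL1), or siMbnl1 with FLAG-tagged cytosolic MBNL1 (siMbnl1_cMBNL1). The labels give no age, strain or type of knockout allele for the mice, and nothing on which mouse each tissue came from. Nothing in the labels says whether the N2a samples were separate cultures, so p-values there measure only the spread between these samples.

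Each splicing table compares 2 numbered sets of replicates and does not say which set is which group. The tissue tables are therefore given as set 1 minus set 2, and a direction by genotype cannot be read from them. In the first N2a table set 1 has 3 replicates and set 2 has 2, which makes set 1 siFmr1 and set 2 siNT. The co-transfection has 4 tables, called contrasts 1 to 4 here. Among them 2 sets recur with identical reads in 100% of the events that a pair of tables both list (1393 to 1414 events). These are called pcDNA set A (set 1 of contrast 1 and set 2 of contrast 3) and pcDNA set B (set 2 of contrasts 1, 2 and 4). The labels name siNT_pcDNA and siFmr1_pcDNA for the table of contrast 1, so these are sets A and B in an order that is not given. For each of the other 3 tables the labels name 1 group, siMbnl1_pcDNA for contrast 2, siFmr1_nMBNL1 for contrast 3 and siMbnl1_cMBNL1 for contrast 4. Set 2 of these tables is set A or B, so set 1 is taken to be the named group.

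An acceptor is read by the spliceosome as a branch point, a run of pyrimidines and a terminal AG. Where a second AG follows the first, either can be joined to the upstream exon, and the choice depends on the strength and spacing of both sites and on proteins bound nearby. An extension whose length is a multiple of 3 adds or removes whole codons in a coding exon, and any other length shifts the reading frame unless it lies outside the coding sequence. MBNL1 is an RNA-binding protein that binds YGCY motifs and regulates alternative splicing.

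The sequences of the named events with coding extensions of at most 60 bases show what the choice adds to the mRNA. Each is written 5' to 3' as the DNA letters of a GENCODE M21 transcript (build GRCm38, positions counted from 1), with 12 bases of the upstream exon and 12 bases of the short exon in lower case and the extension in capitals. The coordinates are those of the extension. For Rundc3a neither junction of the event is in GENCODE M21. Its 12 upstream bases come from a transcript that joins another donor to the same acceptor, and are not those of the event's own upstream exon.
Syt1, 9 bases, chr10:108636665-108636673, minus strand: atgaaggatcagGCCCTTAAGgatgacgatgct
Nr1h2, 9 bases, chr7:44552237-44552245, minus strand: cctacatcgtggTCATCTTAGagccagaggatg
Mrps36, 6 bases, chr13:100739196-100739201, minus strand: ctaaactcagtgCCTCAGaagctttggggt
Pcbp2, 12 bases, chr15:102484154-102484165, plus strand: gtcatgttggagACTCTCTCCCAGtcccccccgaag
Strn4, 21 bases, chr7:16831465-16831485, plus strand: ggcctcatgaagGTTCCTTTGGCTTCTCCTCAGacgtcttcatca
Mrpl55, 21 bases, chr11:59204535-59204555, plus strand: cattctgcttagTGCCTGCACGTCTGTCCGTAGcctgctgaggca
Rundc3a, 24 bases, chr11:102400637-102400660, plus strand: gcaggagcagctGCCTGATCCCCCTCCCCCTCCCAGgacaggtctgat
Magi1, 33 bases, chr6:93694176-93694208, minus strand: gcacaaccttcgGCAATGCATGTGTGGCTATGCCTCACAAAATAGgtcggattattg
Serbp1, 45 bases, chr6:67272819-67272863, plus strand: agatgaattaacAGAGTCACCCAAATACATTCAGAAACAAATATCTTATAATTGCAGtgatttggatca
Sept4, 53 bases, chr11:87589956-87590008, plus strand: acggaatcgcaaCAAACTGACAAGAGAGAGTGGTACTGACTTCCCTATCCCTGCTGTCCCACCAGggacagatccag
Plekha6, 60 bases, chr1:133270000-133270059, plus strand: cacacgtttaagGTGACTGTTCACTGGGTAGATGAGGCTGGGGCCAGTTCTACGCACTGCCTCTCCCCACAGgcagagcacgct
Each of these 11 extensions ends in AG, which is the end of the downstream acceptor. The named Asb1 event (5 bases, in a 5' UTR) and the 46-base Ngfrap1 event (coding sequence and UTR) are not printed.

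The data were checked against the labels before the events were read. Fmr1 was lower in the KO samples of cortex (27.8 to 34.1 CPM, counts scaled to the library total, against 118 to 126 in WT), hippocampus (23.5 to 24.7 against 86.7 to 95.1), cerebellum (30.8 to 32.7 against 103 to 122), liver (7.58 to 7.86 against 19.5 to 25.7) and testis (8.29 to 9.56 against 32.5 to 38.4). In muscle the genotypes overlapped, with 8.63 to 11.2 CPM in KO and 10.9 to 16.8 in WT. In the first N2a experiment siFmr1 samples held 2.10 to 15.8 CPM and the siNT samples 20 and 81.2. In the co-transfection Fmr1 was at 583 to 612 normalized counts in siFmr1_pcDNA and 2819 to 3604 in siNT_pcDNA, and Mbnl1 was at 1408 to 1538 in siMbnl1_pcDNA, 11032 to 13253 in siFmr1_nMBNL1 and 16769 to 23339 in siMbnl1_cMBNL1 against 3759 to 5017 in siNT_pcDNA. Defining markers were present in their labelled tissues, such as Alb in liver, Acta1 in muscle, Prm1 in testis and Gabra6 in cerebellum. Junction reads of alternative acceptor events ran from 23898 to 29833 per library in cortex, where 180 events had 20 or more reads, and up to 807836 in the co-transfection, where 835 to 870 did. In bulk samples a change in the share of a cell type and a change within cells cannot be told apart.

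Multiples of 3 made up a larger share of the extensions inside coding sequence than of those elsewhere. The most common length was 4 bases (70 events), followed by 5 bases (39) and 6 bases (38), and the median was 44 bases. The 4-base extensions with sequence numbered 69, and the most frequent were acag (16), gcag (12) and aaag (8). Of the 1161 events, 561 (48.3%) had a length that was a multiple of 3. In coding extensions this held for 403 of 641 (62.9%). It held for 48 of 192 extensions in 5' untranslated regions (UTR, 25%), 12 of 30 in 3' UTRs (40.0%), 68 of 217 that spanned coding sequence and UTR (31.3%) and 18 of 51 in non-coding transcripts (35.3%). For 30 events the long acceptor was not in the annotation. Within coding extensions, those of 13 to 60 bases were multiples of 3 in 73.1% of 290 events, and those under 13 bases in 48.8% of 164. Extensions of 3 bases are left out by the rule used here, and 429 of them over all places reached the read minimum. All of these would fall in the class under 13 bases. The rule therefore lowers the share of that class alone, and 48.8% does not show that short coding extensions keep the frame less often. The shares by place leave out 3-base extensions as well. These shares are a description, and the difference between them was not tested.

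**Figure D1:**
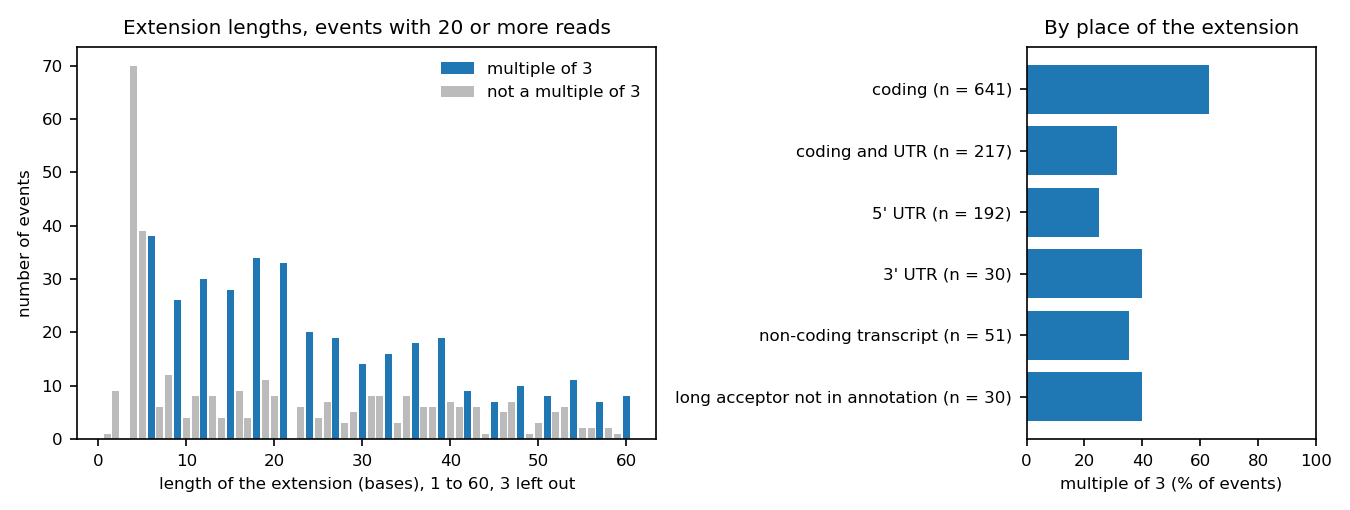
Left, number of events (vertical axis) at each extension length from 1 to 60 bases, with multiples of 3 in blue and 3 itself left out. Right, share of events whose length is a multiple of 3 by place of the extension, from 25% in 5' UTRs to 62.9% in coding sequence.

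Most of these acceptors were known from transcripts. The long junction was annotated for 1002 events (86.3%), the short junction for 866 (74.6%), and both for 787. Sequence was available for 1058 extensions, and 1056 of them (99.8%) ended in AG. The last 3 bases of the downstream acceptor were CAG in 753 events (71.6%), TAG in 184 (17.5%), AAG in 101 (9.61%) and GAG in 12 (1.14%).

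The long form was the more frequent one at the median for extensions under 13 bases, and outside the brain for most longer classes too. Its level, the length-corrected share of junction reads in percent, had a median of 74.4% to 90.7% over extensions under 13 bases in the 11 tables. Extensions of 4 bases stood at medians of 84.5% (liver) to 95.4% (co-transfection contrast 1). In the tables outside the brain, medians were 62.9% to 75.2% for 13 to 60 bases and 59.8% to 85.1% for 61 to 300 bases. In the brain regions they were 36.1% to 46.7% and 39.8% to 50.5%. Extensions over 300 bases had medians of 14.2% in cortex, 15.6% in hippocampus and 31.6% in cerebellum. Outside the brain their medians were 43.9% in testis, 57.2% in muscle, 71.2% in liver, 78.8% in the first N2a experiment and 93.5% to 94.8% in the co-transfection. The brain tables count shorter form lengths (34 for the short form, against 149 in the other tables), so levels are not compared between brain and the rest, and where both are given they are to be read separately. A read across the boundary of the short exon inside the long exon counts for the long form, and unspliced RNA gives such reads too. How much it adds was not tested. In cortex 97 of 180 events (53.9%) lay between 10% and 90%, against 89 of 118 events of 3 bases (75.4%), and in liver 43.4% did, against 79.7%. This difference from the 3-base events was not tested.

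**Figure D2:**
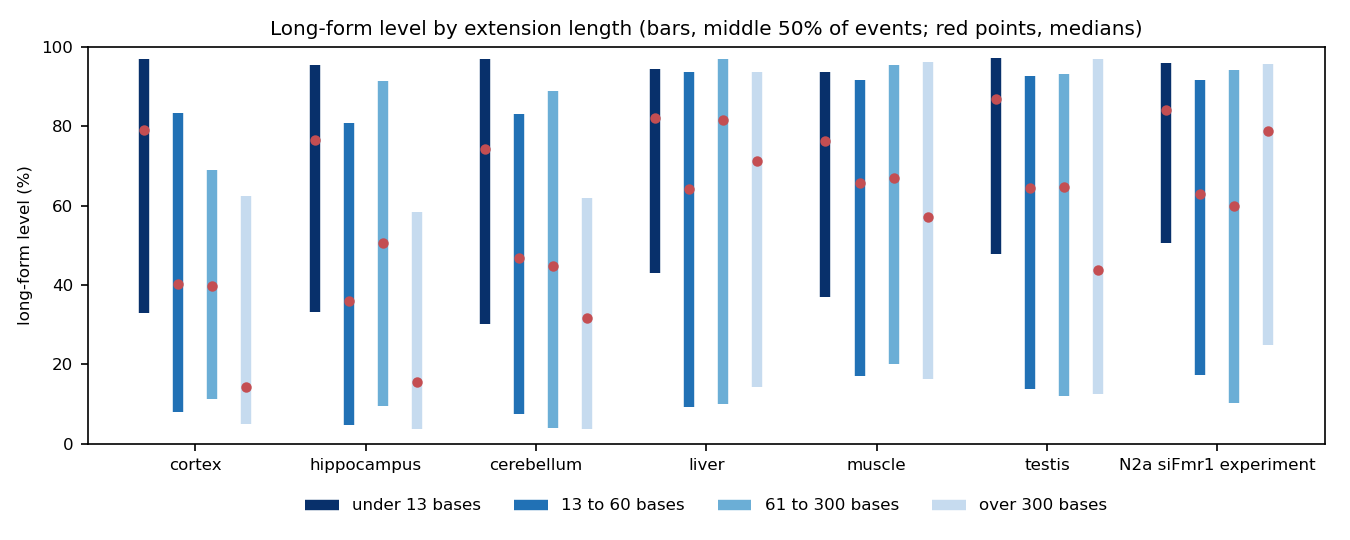
Long-form level in percent (vertical axis) by tissue or cell experiment and extension length, with bars for the middle 50% of events and red points for the median. Extensions under 13 bases have medians of 74.4% to 87.0% here, and those over 300 bases have 14.2% to 31.6% in the brain regions, whose levels are not compared with the others.

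The events with the most reads show the range of these choices. Pcbp2, a poly(C)-binding protein, kept its 12-base extension at 34.1% ± 6.51 (SD, n = 6) in cortex, 34.1% ± 3.45 in hippocampus, 33.8% ± 4.09 in cerebellum, 47.4% ± 2.66 in liver, 39.0% ± 4.10 in muscle and 48.3% ± 2.06 in testis. Mrps36, a mitochondrial protein, kept its 6 bases at 91.9% ± 5.80 in liver, 88.5% ± 2.88 in muscle and 86.4% ± 2.82 in testis. The 46-base extension of Ngfrap1, a small signalling adaptor of the Bex family, stood at 86.4% ± 6.34 in cortex and 77.7% ± 0.725 in the first N2a experiment (n = 5). In muscle the glycolytic enzyme gene Eno3 had a 112-base extension in its 5' UTR (chr11:70657760-70657871) at a long-form level of 29.3% to 33.3%, with 10847 to 13206 junction reads per library. Tpm2, which encodes the actin filament protein tropomyosin beta, had its 1142-base event at 99.0% to 99.8% in muscle and at 0% to 1.89% in testis, where the reads numbered 22 to 43. Those 2 ranges do not overlap, and the event was too thinly read in liver to enter the tissue fit.

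Between the 2 sets of each tissue, the extension of Syt1 in cortex was the single event called. Syt1 encodes synaptotagmin 1, the calcium sensor of synaptic vesicle release, and its 9-base extension is coding. The long form made up 53.0%, 58.6% and 54.5% in cortex set 1 and 40.4%, 45% and 43.0% in set 2. All 3 libraries of set 1 lay above all 3 of set 2. The difference was 12.6 percentage points (adjusted p = 0.000727 by a quasi-binomial F test), and the authors' deposited table gives a false discovery rate (FDR) of 0.00147. Without library 1 of set 2 the adjusted p was 0.125 and without library 3 it was 0.224, and with limma on log-odds it was 0.979. In hippocampus the same extension stood at 61.7% ± 5.26 in set 1 and 57.5% ± 2.18 in set 2 (n = 3 each), a difference of 4.17 points whose replicates overlapped (adjusted p = 0.880). Whether the cortex and hippocampus differences themselves differ was not tested. A call needed an adjusted p under 0.05 over all alternative acceptor events of the table and a difference of at least 10 points.

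In cortex 1 of 180 tested events was thus called, which is 0.556%, against 0.336% of all alternative acceptor events tested there, 3-base ones included. The quasi-binomial test called 0 of 209 events in hippocampus, 0 of 234 in cerebellum, 0 of 316 in liver, 0 of 365 in muscle and 0 of 470 in testis, each 0% of those tested and 0% of all alternative acceptor events. At an unadjusted p under 0.05 it counted 7 events in cortex, 9 in hippocampus, 21 in cerebellum, 30 in liver, 29 in muscle and 41 in testis. With limma the adjusted calls were 0 in all 6 tissues, and the unadjusted counts were 8, 7, 21, 23, 21 and 30 in the same order. By the FDR of the authors' deposited tables, with the same minimum difference and reads, 2, 1, 1, 6, 1 and 5 events were called. Median absolute differences ran from 1.91 points in cerebellum to 2.45 in liver, below the median SD between replicates of 2.95 and 3.34 points. Differences under 10 points could not be called by the rule used here.

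In the first N2a experiment the quasi-binomial test called 0 of 525 events (0%). It counted 18 at an unadjusted p under 0.05. Limma called 0 and counted 23, and the authors' deposited FDR called 5. Serbp1, which encodes an mRNA-binding protein, is an example of the spread, with its 45-base extension at 24.3%, 34.2% and 33.7% after siFmr1 and at 24.5% and 35.8% after siNT. Both groups held a library near 24% and others near 34%. The siNT samples also differed from each other in Fmr1 (20 and 81.2 CPM). The part of that difference in these levels was not tested.

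**Figure D3:**
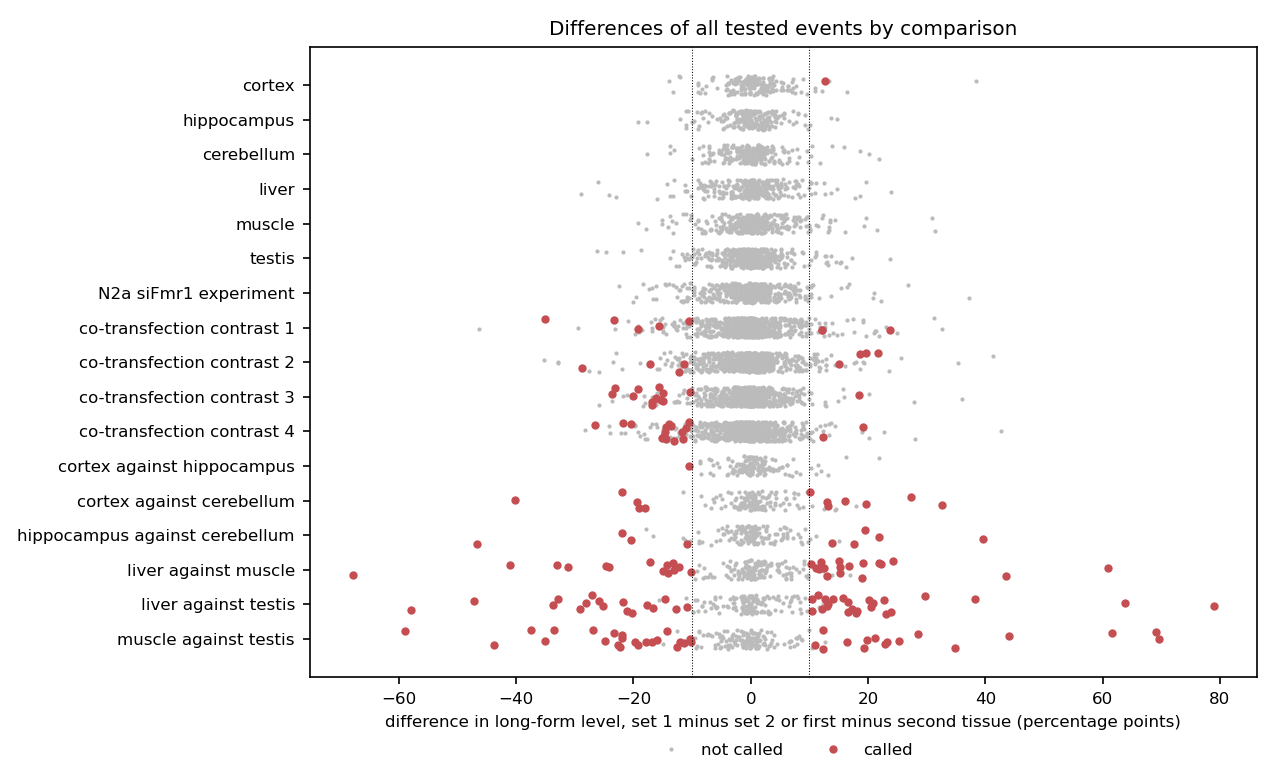
Difference in long-form level in percentage points (horizontal axis) for each tested event in the 11 tables and 6 tissue comparisons, with called events in red, the others in grey and dotted lines at 10 points either way. Within the tissues 1 event is red (Syt1 in cortex), whereas 12 are red for cortex against cerebellum and 41 for liver against testis.

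Between brain regions, 14 of 144 events that were read in all 3 regions were called in at least 1 comparison (9.72%). Cortex and cerebellum differed in 12 events (8.33% called, against 5.76% of all alternative acceptor events), 7 higher in cortex and 5 lower, and 8 of the 12 did not overlap between libraries. How many events that were not called also lacked overlap was not counted. Hippocampus and cerebellum differed in 9 events (6.25%, against 4.12%), and cortex and hippocampus in 1 (0.694%, against 0.823%). Each region entered with its 6 libraries and 1 mean per set, so the spread behind the p-values is that within sets. Ranges and SDs over 6 libraries take both sets together and so include genotype. The comparisons share libraries. Extensions over 300 bases were called in 8 of 20 events (40.0%) for cortex against cerebellum, those of 61 to 300 bases in 3 of 26 (11.5%), those of 13 to 60 bases in 1 of 63 (1.59%) and those under 13 bases in 0 of 35.

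The change with the smallest p was in Gpm6b, which encodes a membrane glycoprotein of the proteolipid family. Its 1561-base extension (chrX:166385391-166386951, plus strand) spans coding sequence and UTR. The long-form level was 43.1% at the lowest, 48.0% at the median and 54.8% at the highest in cortex, 37.7%, 41.6% and 45.3% in hippocampus, and 86.6%, 88.1% and 90.2% in cerebellum. All cerebellar libraries lay above all others. The cerebellum was 40.2 points above cortex (a difference of -40.2, adjusted p = 2.66e-46) and 46.6 above hippocampus (-46.6, adjusted p = 2.91e-54).

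Gprc5b, an orphan G protein-coupled receptor gene, went the other way with its 1967-base extension (chr7:118973237-118975203, minus strand). Its level was 81.8% to 89.3% in cortex (median 85.0%), 88.0% to 97.0% in hippocampus (median 92.6%) and 49.4% to 57.0% in cerebellum (median 51.6%). Cortex was higher by 32.7 points (adjusted p = 2.66e-08) and hippocampus by 39.7 (adjusted p = 4.28e-13), with no overlap. Nrxn2 encodes neurexin 2, a presynaptic adhesion protein, and its 576-base coding extension (chr19:6531268-6531843, plus strand) was also lower in cerebellum. It stood at 43.6% to 81.8% in cortex (median 63.2%), 47.8% to 64.5% in hippocampus (median 57.6%) and 31.4% to 39.6% in cerebellum (median 34.3%). The differences of 27.3 points (adjusted p = 8.17e-11) and 21.9 points (adjusted p = 1.92e-09) came without overlap.

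Iqsec1 encodes an exchange factor for ARF6 found at synapses. Its 1930-base extension (chr6:90661026-90662955, minus strand) was used little in cortex (2.27% to 14.3%, median 7.0%) and in hippocampus (4.55% to 17.5%, median 6.16%), and more in cerebellum (16.1% to 41.5%, median 29.9%). The differences were -22.0 points for cortex (adjusted p = 1.74e-06) and -21.9 for hippocampus (adjusted p = 1.60e-07). The cortex libraries did not overlap with cerebellum, and the hippocampal ones did.

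The fit of the brain regions also called 1 event of 3 bases between cortex and hippocampus. Among events of other lengths, the Syt1 extension was the single one called there. Its 9 bases are the shortest such extension called between brain regions. The level in hippocampus was 55.4% at the lowest, 58.6% at the median and 66.6% at the highest, against 40.4%, 49.0% and 58.6% in cortex and 37.6%, 40.7% and 42.3% in cerebellum. Hippocampus exceeded cerebellum by 19.5 points with no overlap (adjusted p = 1.40e-12). Cortex was lower than hippocampus by a difference of -10.5 points with overlapping libraries (adjusted p = 6.05e-07). That difference was under 10 points in 4 of the 12 fits without 1 library, with a lowest value of 9.28, and limma gave an adjusted p of 0.122. Cortex exceeded cerebellum by 9.0 points, which is under the minimum difference (adjusted p = 0.00209). In N2a cells nearly all Syt1 reads were of the long form, at 97.7% to 100% in the first experiment and 95.5% to 100% in the co-transfection.

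Liver, muscle and testis differed in more events than the brain regions, although the fits cover other events and other depths and were not tested against each other. Of 179 events read in all 3 tissues, 66 in 64 genes were called in at least 1 comparison (36.9%). Liver and muscle differed in 31 (17.3%, against 13.2% of all alternative acceptor events), 17 higher in liver and 14 lower. Liver and testis differed in 41 (22.9%, against 18.4%), 24 higher in liver and 17 lower. Muscle and testis differed in 39 (21.8%, against 19.1%), 16 higher in muscle and 23 lower. The libraries of 17, 24 and 26 of these did not overlap. Overlap was counted among the called events alone, so no share over all events stands beside it. Among events of 3 bases the same fits called 5, 9 and 13 of 93. With a minimum of 50 reads in place of 20, fewer events were tested and 16, 15 and 13 were called.

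Muscle stood apart from both other tissues in the microtubule genes Kif1b and Map4. Kif1b encodes a kinesin motor that carries vesicles and mitochondria, and its 78-base extension (chr4:149258004-149258081, minus strand) is coding, with a long junction that GENCODE M21 does not list. The level was 62.7% to 87.5% in muscle (median 74.6%), against 0% to 19.3% in liver (median 5.02%) and 1.09% to 12.1% in testis (median 5.00%). The difference was -67.9 points for liver against muscle (adjusted p = 1.13e-16) and 69.1 for muscle against testis (adjusted p = 2.00e-19), with no overlap.

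Map4, a microtubule-associated protein gene, showed the opposite order for a 106-base extension (chr9:110081735-110081840, plus strand). Its level was 5.58% to 11.4% in muscle (median 8.08%), 46.5% to 88.8% in liver (median 69.9%) and 64.4% to 72.6% in testis (median 66.6%). All muscle libraries lay below all others, by 61 points against liver (adjusted p = 1.57e-25) and -58.9 against testis (adjusted p = 1.68e-48). The mean was 61% in the first N2a experiment.

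Cdv3 and Strn4 showed the same contrasts in opposite directions. The 716-base extension of Cdv3 (chr9:103355314-103356029, minus strand) stood at 36.2% to 48.9% in muscle (median 45%), 83.6% to 92.6% in liver (median 88.2%) and 76.6% to 82.1% in testis (median 78.8%). Liver exceeded muscle by 43.6 points (adjusted p = 8.98e-15), and muscle minus testis was -35.1 (adjusted p = 3.27e-32). Strn4 encodes a striatin, a scaffold of protein phosphatase 2A complexes. Its 21-base coding extension, with the pyrimidine-rich run shown above, stood at 46.9% to 73.6% in muscle (median 66.6%), 0% to 35.8% in liver (median 27.8%) and 18.1% to 23.1% in testis (median 20.2%). The differences were -41.0 points (adjusted p = 6.25e-06) and 44.1 points (adjusted p = 2.61e-11), and the muscle libraries overlapped with neither tissue.

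Testis stood apart in Crem, Sept4 and Mrpl55. Crem encodes a cAMP-responsive transcription factor that has testis-specific isoforms and is needed for spermatid development. Its 397-base extension stood at 0% to 1.06% in testis (median 0.611%, 525 to 671 reads per library), at 62.5% to 88.7% in liver (median 81.9%) and at 52.6% to 100% in muscle (median 68.7%). The differences were 79.0 points for liver (adjusted p = 4.64e-37) and 69.7 for muscle (adjusted p = 5.38e-34), with no overlap.

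Sept4 encodes septin 4, a filament-forming GTPase of the sperm annulus and of other cells. Its 53-base extension shifts the reading frame, since 53 is not a multiple of 3. The level was 25.8% to 33.8% in testis (median 30.2%), 89.9% to 100% in liver (median 90.6%) and 80.7% to 97.6% in muscle (median 94.7%). Liver exceeded testis by 63.9 points (adjusted p = 1.84e-08) and muscle by 61.7 (adjusted p = 1.16e-14), with no overlap. Mrpl55, a protein gene of the large mitochondrial ribosomal subunit, was higher in testis for its 21-base extension. It stood at 56.6% to 64.5% in testis (median 60.3%), 8.86% to 19.0% in liver (median 12.1%) and 14.6% to 19.5% in muscle (median 16.3%). Testis lay above both, with differences of -47.2 (adjusted p = 3.30e-28) and -43.7 points (adjusted p = 7.0e-34). Liver and muscle overlapped and were not called apart (-3.47 points, adjusted p = 0.160).

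Of the 179 events of lengths other than 3, Ndfip2 was the single one called in all 3 comparisons. It encodes an adaptor of NEDD4-family ubiquitin ligases, and the 230-base extension lies in its 3' UTR (chr14:105307886-105308115, plus strand). The level was 12.7% to 34.2% in liver (median 21.3%), 40.4% to 68.3% in muscle (median 53.7%) and 66.7% to 93.0% in testis (median 81.5%). Liver was lower than muscle (-31.1 points, adjusted p = 4.84e-08) and than testis (-58.0, adjusted p = 6.37e-22) without overlap. Muscle was lower than testis with overlapping libraries (-26.9, adjusted p = 4.95e-05).

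Serbp1 was lower in liver, and Eif4a2 was lower in muscle than in liver. The 45-base Serbp1 extension had means of 36.8% ± 2.19 in liver, 49.8% ± 1.47 in muscle and 49.6% ± 2.60 in testis (SD, n = 6). Liver was lower by differences of -13.0 (adjusted p = 4.31e-14) and -12.8 points (adjusted p = 7.78e-13). Eif4a2 encodes an RNA helicase of translation initiation, and its 816-base extension (chr16:23112351-23113166, plus strand) had means of 13.3% ± 2.29 in liver, 2.06% ± 0.716 in muscle and 11.5% ± 2.07 in testis. Liver exceeded muscle by 11.2 points (adjusted p = 2.89e-32), and muscle minus testis was -9.47 points, under the minimum difference (adjusted p = 3.97e-28). The same extension ranged from 24.6% to 60.2% in the first N2a experiment.

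The named tissue calls held in each of the 12 fits that left out 1 library, except Syt1 for cortex against hippocampus (8 of 12) and a 9-base Nr1h2 event for muscle against testis (9 of 12). Nr1h2 encodes the oxysterol receptor LXR beta, and its means were 50.9% ± 10.7 in muscle and 68.9% ± 13.3 in testis with overlap (-17.9 points, adjusted p = 0.0122). Limma ended the same pair of calls (adjusted p = 0.122 and 0.0694) and none of the other named tissue calls.

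**Figure D4:**
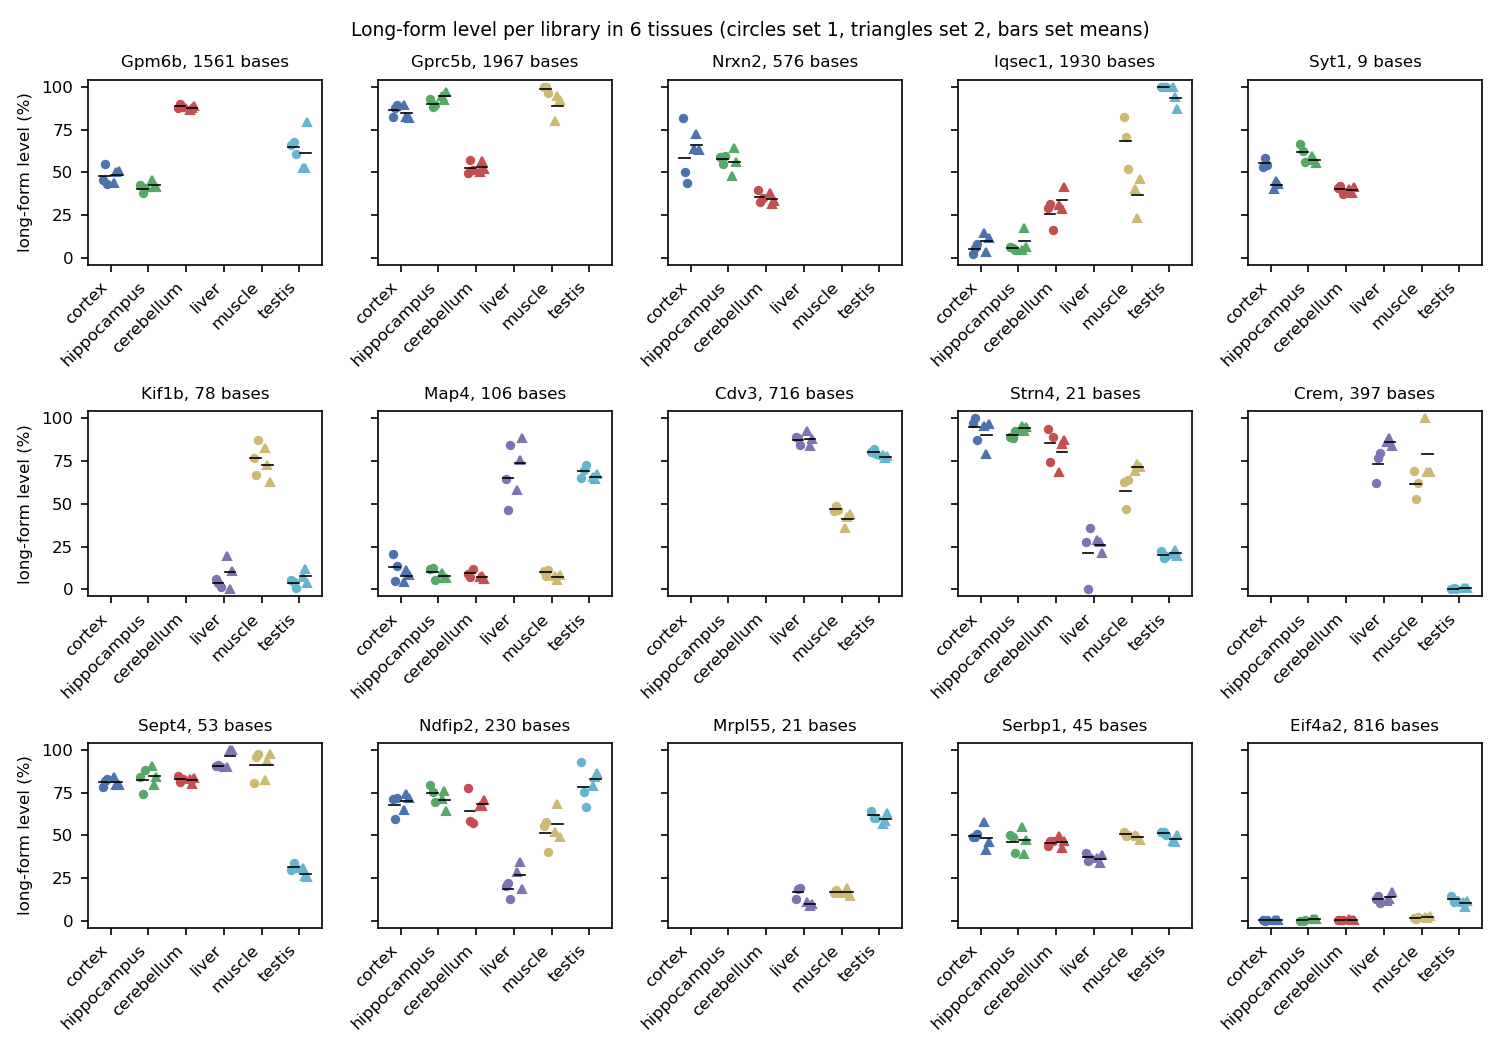
Long-form level in percent (vertical axis) of 15 events in cortex, hippocampus, cerebellum, liver, muscle and testis, 1 panel per event. Circles are libraries of set 1, triangles those of set 2 and bars the set means, and the Crem panel shows testis at 0% to 1.06% against 62.5% to 88.7% in liver.

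The co-transfection tables had the most reads and gave 33 called events in 29 genes over the 4 tables. Contrast 1 compares pcDNA set A with pcDNA set B, and 8 of 840 events were called (0.952%, against 0.684% of all alternative acceptor events), 3 higher in set A and 5 lower. Contrast 2 compares siMbnl1_pcDNA with set B, and 8 of 835 were called (0.958%, against 0.684%), 4 in each direction. Contrast 3 compares siFmr1_nMBNL1 with set A, and 13 of 870 were called (1.49%, against 1.08%), 12 of them lower (1.38%, against 0.998%). Contrast 4 compares siMbnl1_cMBNL1 with set B, and 17 of 850 were called (2%, against 1.52%), 15 of them lower (1.76%, against 1.35%). None of these calls overlapped between its 2 sets of 3 libraries. Lack of overlap among the events that were not called was not counted. Contrasts 1, 2 and 4 share the 3 libraries of set B, and contrasts 1 and 3 share set A, so a departure of 1 shared set enters several tables.

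These calls are sensitive to the test and to single libraries. Limma on log-odds called 0 events in each of the 4 tables and counted 85, 86, 80 and 96 at an unadjusted p under 0.05, where the quasi-binomial test counted 118, 114, 93 and 123. The FDR of the authors' deposited tables called 40, 48, 29 and 52 with the same minimum difference. Library 1 of set B, in the order in which the tables list them, differed from its set mates by a mean of 8.46 and 7.95 points per event, against 6.43 between those mates. Without that library the counts were 14, 12 and 12 in contrasts 1, 2 and 4. Contrast 1 gave 5 calls without library 2 or without library 3 of set A. Contrast 2 gave 4, 3 and 1 without library 1, 2 and 3 of siMbnl1_pcDNA, contrast 3 gave 7 without library 1 of siFmr1_nMBNL1 and 3 without library 2 of set A, and contrast 4 gave 5, 7 and 7 without library 1, 2 and 3 of siMbnl1_cMBNL1.

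Pdlim5 was the single event called in all 4 tables, and its call held in every fit without 1 library. It encodes a PDZ and LIM domain protein that links kinases to the actin cytoskeleton, and the 327-base extension (chr3:142312215-142312541, minus strand) is coding. The level was 50.8%, 57.7% and 45.1% in set A and 78.5%, 68.9% and 76.3% in set B. It was 47.9%, 38.5% and 51.3% in siMbnl1_pcDNA, 32.4%, 29.6% and 33.6% in siFmr1_nMBNL1 and 53.3%, 46.8% and 43.6% in siMbnl1_cMBNL1. Set B was the highest of the 5 groups and siFmr1_nMBNL1 the lowest, each without overlap. The differences were -23.4 points in contrast 1 (adjusted p = 0.000551), -28.7 in contrast 2 (adjusted p = 2.44e-05), -19.3 in contrast 3 (adjusted p = 1.40e-06) and -26.6 in contrast 4 (adjusted p = 2.10e-05). In the first N2a experiment the levels were 22.4%, 39.1% and 47.9% after siFmr1 and 32.8% and 75% after siNT, which overlapped (-17.4 points, adjusted p = 0.969).

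Sf1 was lower in both groups that received MBNL1. It encodes splicing factor 1, which binds the branch point, and the 638-base extension (chr19:6375658-6376295, plus strand) spans coding sequence and UTR, with both junctions absent from GENCODE M21. The level was 83.9%, 84.7% and 79.0% in siFmr1_nMBNL1 and 83.6%, 83.9% and 80.2% in siMbnl1_cMBNL1. It was 98.6%, 99.2% and 96.6% in set A, 96.1%, 96.4% and 98.7% in set B and 96.2%, 97.8% and 99.4% in siMbnl1_pcDNA. The ranges of the MBNL1 groups and of the 3 control-plasmid groups did not overlap. The differences were -15.6 points in contrast 3 (adjusted p = 5.79e-09) and -14.5 in contrast 4 (adjusted p = 0.000258), held in every fit without 1 library, and had limma adjusted p-values of 0.0746 and 0.0756.

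Poglut1 encodes an enzyme that adds glucose to Notch receptors. Its 203-base extension (chr16:38549434-38549636, minus strand) is annotated in a non-coding transcript. The level was 52.6%, 50.2% and 44.1% in set A, 42.4%, 36.5% and 35.1% in set B, 32.5%, 38.6% and 30.3% in siMbnl1_pcDNA, 31%, 34.3% and 31% in siFmr1_nMBNL1 and 24.1%, 25.2% and 23.9% in siMbnl1_cMBNL1. The siMbnl1_pcDNA libraries, which received no MBNL1, overlapped with those of siFmr1_nMBNL1. It was lower than set A in contrast 3 (-16.8 points, adjusted p = 0.00263) and lower than set B in contrast 4 (-13.6, adjusted p = 0.0385). The contrast 3 call was lost without library 2 of set A (adjusted p = 0.0947), and the contrast 4 call was lost in all 6 fits without 1 library (adjusted p = 0.0539 to 0.184).

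Several events differed in set B from the groups compared with it. Celf3 encodes an RNA-binding regulator of splicing in neurons, and its 84-base coding extension (chr3:94487703-94487786, plus strand) stood at 64.5%, 46.1% and 47.5% in set B. It was 36.4%, 33.0% and 30.7% in set A, 35.9%, 32.0% and 38.5% in siMbnl1_pcDNA and 35.6%, 39.8% and 38.3% in siMbnl1_cMBNL1. The siFmr1_nMBNL1 mean was 31.7%. Set A, siMbnl1_pcDNA and siMbnl1_cMBNL1 lay below all of set B, by differences of -19.3 (adjusted p = 0.000527), -17.2 (adjusted p = 0.00205) and -14.8 points (adjusted p = 0.00416). Library 1 of set B was the highest, and without it the last difference was -8.86 points. The contrast 2 call was lost without any 1 of the siMbnl1_pcDNA libraries (adjusted p = 0.111 to 0.230) and the contrast 4 call without any 1 of the siMbnl1_cMBNL1 libraries (adjusted p = 0.0742 to 0.267). The same pair of acceptors is listed with further donors, and 3 Celf3 events were called in contrast 4.

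The 816-base Eif4a2 extension stood at 93.4%, 91.5% and 87.0% in set B, above 76.7%, 79.8% and 83.8% in set A, 77.8%, 78.7% and 79.0% in siMbnl1_pcDNA and 78.8%, 81.6% and 79.6% in siMbnl1_cMBNL1. The differences were -10.6 (adjusted p = 0.00233), -12.2 (adjusted p = 2.44e-05) and -10.6 points (adjusted p = 0.000279). They lie close to the minimum difference, and the siFmr1_nMBNL1 libraries stood at 81.6% to 82.6%. Without library 1 of set B the contrast 1 and contrast 4 differences were -9.17 and -9.25 points, and the contrast 1 difference was -8.86 without library 1 of set A. Without library 2 of set A the contrast 1 adjusted p was 0.0529, without library 3 of siMbnl1_pcDNA that of contrast 2 was 0.0675, and without library 1 of siMbnl1_cMBNL1 that of contrast 4 was 0.0649.

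Snx27 and Syt6 were lower in set B. Snx27 encodes a sorting nexin that returns receptors from endosomes to the plasma membrane, and its 794-base extension (chr3:94501272-94502065, minus strand) stood at 19.7%, 15% and 24.5% in set B against 37.9%, 46.7% and 46.2% in set A and 42.1%, 39.9% and 34.5% in siMbnl1_cMBNL1. The means of siMbnl1_pcDNA and siFmr1_nMBNL1 were 31.9% and 56.3%. The differences were 23.8 (adjusted p = 0.00155) and 19.1 points (adjusted p = 0.00316). The contrast 1 call was lost without library 3 of set A (adjusted p = 0.0529), and the contrast 4 call without library 1 or 2 of siMbnl1_cMBNL1 (adjusted p = 0.0963 and 0.114). Syt6 encodes a synaptotagmin, and its 83-base extension (chr3:103585342-103585424, plus strand) is coding and not a multiple of 3. It stood at 16.2%, 5.66% and 3.61% in set B, 21.9%, 16.9% and 23.4% in set A, 34.7%, 28.7% and 20.9% in siMbnl1_pcDNA and 25.9%, 18% and 18.8% in siMbnl1_cMBNL1. The siFmr1_nMBNL1 mean was 14.9%. The differences of 12.2 (adjusted p = 0.0479), 19.6 (adjusted p = 0.00515) and 12.4 points (adjusted p = 0.0249) were called in 1, 2 and 1 of the 6 fits without 1 library. The highest adjusted p-values there were 0.264 without library 3 of set A, 0.206 without library 1 of siMbnl1_pcDNA and 0.273 without library 1 of siMbnl1_cMBNL1.

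Plekha6 and Magi1 were each called in 1 table. Plekha6 encodes a pleckstrin homology domain protein of cell junctions. Its 60-base coding extension stood at 48.0%, 36.7% and 29.0% in set A and 78.9%, 71.5% and 68.1% in set B (-35.0 points, adjusted p = 0.0270, 25 to 140 reads per library). The call was lost without library 2 or 3 of set A (adjusted p = 0.119 and 0.212) or library 2 of set B (0.142). Means in the other groups were 62.8% in siMbnl1_pcDNA, 44.2% in siFmr1_nMBNL1 and 59.6% in siMbnl1_cMBNL1. Magi1 encodes a scaffold of tight junctions and synapses. Its 33-base coding extension was read in the long form alone in the 3 siMbnl1_pcDNA libraries (100%, from 29 to 95 reads), and at 68.8%, 91.0% and 75.1% in set B (21.7 points, adjusted p = 0.0220). The call was lost without any 1 of the siMbnl1_pcDNA libraries (adjusted p = 0.111 to 0.340). Means in the other groups were 80.8% in set A, 78.7% in siFmr1_nMBNL1 and 83.8% in siMbnl1_cMBNL1. A 36-base Magi1 event with the same downstream acceptor was also called, and the 2 share reads.

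In contrast 3, Asb1, Rundc3a and Fam122b were lower in siFmr1_nMBNL1 than in set A. Asb1 encodes an ankyrin repeat and SOCS box protein, and its 5-base extension (chr1:91544151-91544155, plus strand) lies in the 5' UTR. It stood at 25.1%, 48.3% and 35.2% against 58.7%, 62.0% and 59.1% in set A (-23.7 points, adjusted p = 0.00787). The 24-base extension of Rundc3a, whose pyrimidine run is shown above, stood at 26.4%, 42.3% and 32.4% against 46.7%, 64.6% and 59.0% (-23.1, adjusted p = 0.0111). The 919-base extension of Fam122b (chrX:53245372-53246290, minus strand) stood at 62.5%, 50.5% and 53.3% against 74.5%, 82.1% and 70% (-20.1, adjusted p = 0.0111). The 2 sets of each gene did not overlap. In the groups outside this contrast, Rundc3a had means of 37.6% in set B, 29.4% in siMbnl1_pcDNA and 27.3% in siMbnl1_cMBNL1, beside 33.7% in siFmr1_nMBNL1 and 56.8% in set A. Asb1 had 52.3%, 59.1% and 43.6% in those groups in the same order, and Fam122b had 86.2%, 86.3% and 73.4%. All 3 calls were lost without library 2 of set A (adjusted p = 0.189, 0.206 and 0.247) and without library 3 of siFmr1_nMBNL1 (0.0568 each). Asb1 and Rundc3a were also lost without library 1 of siFmr1_nMBNL1 (0.271 and 0.319), Rundc3a without library 3 of set A (0.0916) and Fam122b without library 2 of siFmr1_nMBNL1 (0.202).

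In contrast 4, Map4, Nr1h2 and Rbm6 were lower in siMbnl1_cMBNL1 than in set B. The 106-base Map4 extension stood at 52.3%, 52.3% and 59.9% against 64%, 71.9% and 72.2% (-14.5 points, adjusted p = 0.0103), and the call was lost without library 1 or 2 of siMbnl1_cMBNL1 (adjusted p = 0.203 and 0.220). The 9-base Nr1h2 extension stood at 48.9%, 41.3% and 43.8% against 65.7%, 69.6% and 59.9% (-20.4 points, adjusted p = 0.0268), and the call held in 1 of 6 fits without 1 library, with adjusted p-values up to 0.217 without library 2 of siMbnl1_cMBNL1. Rbm6 encodes an RNA-binding protein that regulates splicing, and its 271-base extension lies in the 5' UTR (chr9:107853404-107853674, minus strand). It stood at 18%, 15.7% and 12.2% against 57.6%, 24.6% and 29.2% (-21.8 points, adjusted p = 0.0385). Library 1 of set B was the highest, and without it the difference was -11.6 points (adjusted p = 0.134), while without 1 of the siMbnl1_cMBNL1 libraries the adjusted p was 0.267 to 0.353. The siMbnl1_pcDNA group, which received no MBNL1, had means of 18.2% ± 2.49 for Rbm6, 49.4% ± 10.5 for Nr1h2 and 62.4% ± 3.76 for Map4 (SD, n = 3), beside 15.3% ± 2.97, 44.7% ± 3.85 and 54.8% ± 4.42 in siMbnl1_cMBNL1. Its difference from siMbnl1_cMBNL1 was not tested.

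**Figure D5:**
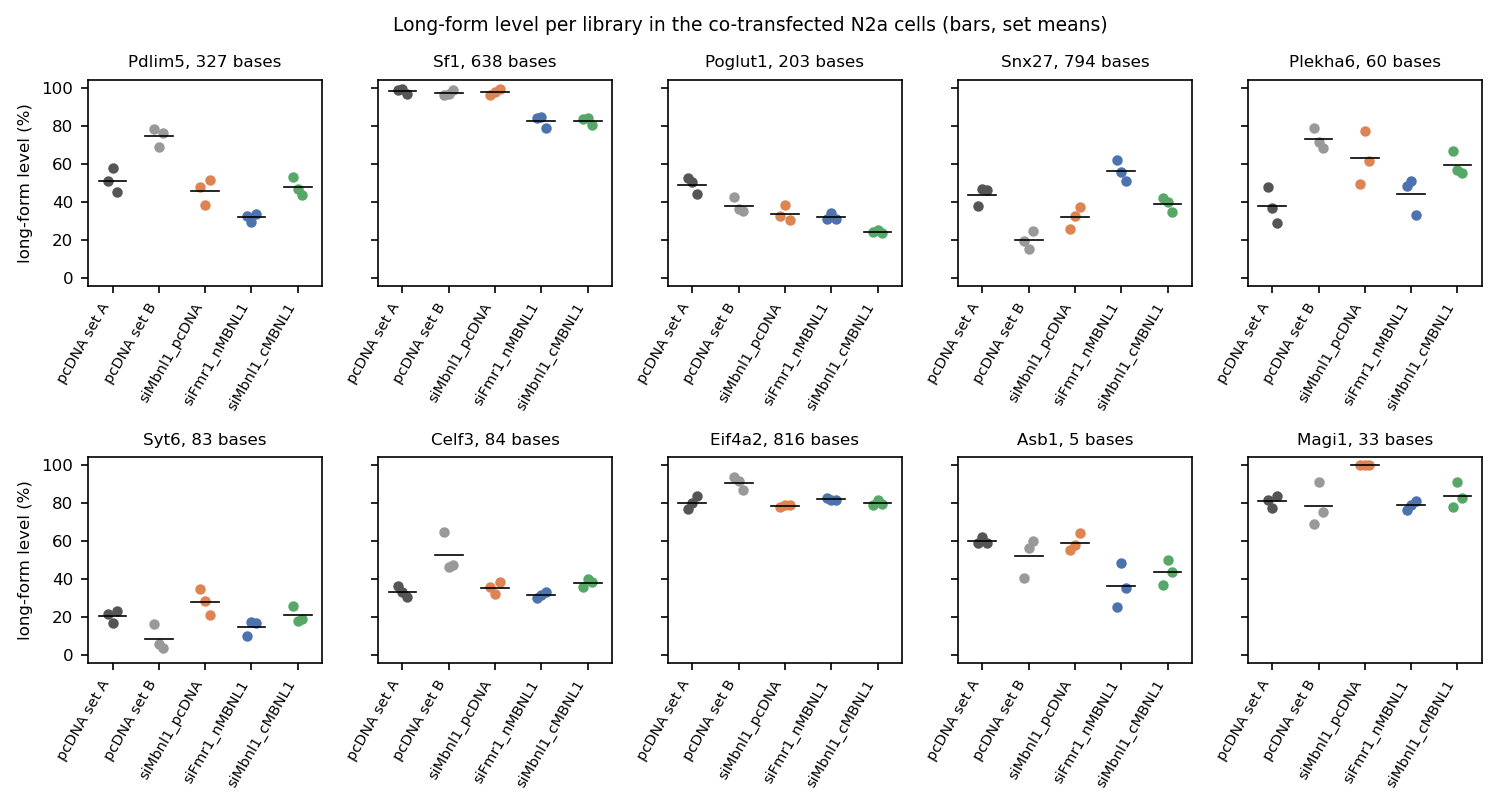
Long-form level in percent (vertical axis) of 10 events in the 5 co-transfection groups, with 1 point per library and a bar at each mean. For Sf1 the siFmr1_nMBNL1 and siMbnl1_cMBNL1 libraries lie at 79.0% to 84.7%, below all others, and for Pdlim5 set B lies above all others.

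By length, contrast 4 called 5 of 106 events over 300 bases (4.72%), 8 of 249 of 61 to 300 bases (3.21%), 3 of 319 of 13 to 60 bases (0.940%) and 1 of 176 under 13 bases (0.568%). In contrast 1 these shares were 3.92%, 0.820%, 0.623% and 0%, and the differences between classes were not tested. Of the 33 events called in any contrast, 25 were called in 1 table, 4 in 2, 3 in 3 and 1 in all 4. Events of 3 bases gave 0 calls in contrasts 1 to 3 by the quasi-binomial test (23, 21 and 13 at an unadjusted p under 0.05) and 1 of 336 in contrast 4.

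Genes of a few functional groups were counted among the same calls. Over all events tested, 8 of 840, 8 of 835, 13 of 870 and 17 of 850 were called in contrasts 1 to 4. Of 56 events in 36 genes of splicing and RNA binding, 2 of 45 tested were called in contrast 1, 2 of 44 in contrast 2, 1 of 46 in contrast 3 and 5 of 48 in contrast 4. All 5 in contrast 4 were lower in siMbnl1_cMBNL1, as were 15 of the 17 calls over all lengths other than 3, and 3 of the 5 are Celf3 events of the same acceptor pair with different donors, which are not independent. Their median absolute difference in contrast 4 was 1.80 points against 2.20 over all events tested. Of 18 such events in the brain regions, 1 was called in cortex against cerebellum. For hippocampus against cerebellum and for cortex against hippocampus it was 0. Over all events tested these brain counts were 12, 9 and 1 of 144 in the same order. Of 18 such events in the peripheral tissues, 5 were called in liver against muscle (17.3% of all tested were), 6 in liver against testis (22.9%) and 2 in muscle against testis (21.8%). Their median absolute differences were 7.23, 7.34 and 3.24 points, against 3.4, 3.73 and 3.83 over all events tested. Of 34 events in 26 synapse and ion channel genes, 1 of 11 was called in cortex (Syt1), beside 1 of 180 over all events. Contrasts 1, 2 and 4 each called 1 (Syt6), of 14, 14 and 15 tested, and contrast 3 called 0 of 18. Between brain regions 1 of 9 was called in cortex against hippocampus, 1 in cortex against cerebellum and 2 in hippocampus against cerebellum. Over all events these were 1, 12 and 9 of 144. Muscle against testis called 1 of 1, and the liver comparisons called 0 of 1. Of 42 events in 27 chromatin and transcription genes, the quasi-binomial test called 0 in each of the 11 tables. Between tissues 1 of 4 was called in cortex against cerebellum and in hippocampus against cerebellum, 0 of 4 in cortex against hippocampus, 1 of 3 in liver against muscle and in liver against testis, and 0 of 3 in muscle against testis. Over all events tested, these brain comparisons called 12, 9 and 1 of 144 in the same order, and the peripheral ones 31, 41 and 39 of 179. These counts are a description of lists chosen with earlier results known.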

How the data were processed

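RNA-seq had been done in 56 samples, the tissue and N2a groups described above, each sample placed in its group by its own labels. Gene tables hold read counts made by the authors (raw counts for the tissues and the first N2a experiment), and the co-transfection gene table holds normalized counts, a signal scaled by the authors. Per the submitters' processing notes, the tools were CASAVA, FastQC 0.11.8, Trimmomatic 0.39, Bowtie2 2.3.5, STAR 2.6.1, RSEM 1.3.1 and DESeq2 1.16.1 with build GRCm38 (mm10), and the role of each is not stated there. Brain libraries were poly(A)-selected and directional, per the labels' protocols. The splicing tables are rMATS output, per the file headers: junction read counts for inclusion (long) and skipping (short) forms per replicate, form lengths, and a p-value and FDR, all deposited by the authors. The version of rMATS is not given in the sources used here. Form lengths and coordinates, of another unit, are deposited in the same tables.

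From these counts, levels were recomputed per replicate (long reads over form length, divided by the sum for both forms) and lay within 0.002 of the deposited ones as fractions. Short-form lengths were 34 in brain and 149 elsewhere. Events with a mean of 20 reads per replicate in both sets were fitted by a quasi-binomial model on long and short counts, in R 4.3.3, with dispersions moderated by limma 3.58.1 (squeezeVar) and kept at 1 or more. The p-values were adjusted by Benjamini and Hochberg over all alternative acceptor events of the table, 3-base ones included, and a call needed an adjusted p under 0.05 and 10 points. For tissue comparisons the 3 brain tables, and those of liver, muscle and testis, were each fitted together with 1 mean per table and set. The alternatives were limma on log-odds (0.5 added to each count), the deposited FDR, no minimum difference, a minimum of 50 reads, and leaving out each library. The fit was tested on simulated data. Other tools were data.table (version 1.17.8), Python 3.11.15, pandas 2.3.3 and matplotlib 3.10.9.

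The members and gene lists were chosen with earlier results of these data known. Named events were, per table, up to 3 called events of largest difference whose replicates did not overlap, up to 4 per tissue comparison, every event called with the same sign in 2 tables that share no set, and per length class the 2 with the most reads and an intermediate level. Annotation and transcript sequence came from GENCODE M21. Gene symbols of septins that had been turned into dates were restored. Naca and Psap could not be read in hippocampus and cerebellum and were left out there, and 2 columns of samples not listed here were not used.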

Additional observations from a re-analysis of the deposited data

How the results depend on the processing

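No paired analysis was possible because the columns of the splicing tables carry no replicate numbers that match the labels. Of the 59 named calls, 565 alternative values kept direction and call, 103 kept the direction but not the call, and 0 reversed. Called events under the deposited FDR numbered 2 in cortex, 1 in hippocampus, 1 in cerebellum, 6 in liver, 1 in muscle, 5 in testis, 5 in the first N2a experiment and 40, 48, 29 and 52 in co-transfection contrasts 1 to 4. Limma on log-odds gave 0 in cortex, in each co-transfection table and for cortex against hippocampus. With no minimum difference the counts were 1 in muscle, 1 in testis, 17, 15, 25 and 30 in contrasts 1 to 4, 5 for cortex against hippocampus, 14 for hippocampus against cerebellum, 51 for liver against muscle, 64 for liver against testis and 61 for muscle against testis. With 50 reads, where fewer events are tested, they were 6 for cortex against cerebellum, 4 for hippocampus against cerebellum, and 16, 15 and 13 for the other 3 tissue pairs in the same order. Leaving out 1 library gave 0 to 1 in cortex, liver and testis, 0 in hippocampus, cerebellum, muscle and the first N2a experiment, 5 to 14, 1 to 12, 3 to 13 and 5 to 21 in contrasts 1 to 4, 0 to 2, 11 to 14 and 8 to 12 in the brain comparisons (cortex against hippocampus, cortex against cerebellum, hippocampus against cerebellum), and 26 to 32, 36 to 43 and 36 to 42 for liver against muscle, liver against testis and muscle against testis. The single calls came in liver without library 2 of set 2 and in testis without library 1 of set 1. Apart from those changes in what is tested, the cause of a difference between tests was not tested. In cortex, the table with the fewest reads, 180 of 609 events reached 20 reads.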

Other observations

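Genes of the splicing machinery and its partners were among the tissue calls outside the named events, and the following were chosen after their values were seen. Snrnp70, which encodes a protein of the U1 particle, had a 2366-base extension at 14.2% ± 4.16 in cortex and 33.6% ± 6.55 in cerebellum (SD, n = 6, adjusted p = 2.66e-08), with no overlap. The same event stood at 31.9% ± 5.87 in liver, 31.2% ± 4.89 in muscle and 11.3% ± 1.87 in testis, where both other tissues lay above testis without overlap. Luc7l, a gene for a U1-associated protein, had a 1057-base extension at 10.1% ± 7.57 in liver and 43.9% ± 14.3 in testis (adjusted p = 8.87e-07), with a mean of 32.8 junction reads. Hnrnpc, which encodes a nuclear RNA-binding protein, had 21-base and 24-base events that were higher in liver than in muscle (61.2% against 45.9%, and 82.4% against 65.6%). An Sf1 event of 638 bases stood at 32.8% ± 4.43 in liver and 60.9% ± 6.50 in testis (adjusted p = 2.44e-12), with no overlap.

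Short coding extensions also differed between tissues in genes of other functions. Srrt, which encodes an RNA cap-associated factor, kept 21 bases at 56.4% ± 6.47 in liver and 89.2% ± 3.08 in testis (adjusted p = 1.08e-12). Atp6v0a1, a subunit gene of the proton pump of vesicles, kept 21 bases at 52.0% ± 7.85 in liver and 13.7% ± 5.46 in testis (adjusted p = 4.78e-07). Neither of these contrasts overlapped between libraries. In Stat3 the 50-base choice, which separates the alpha and beta isoforms of this transcription factor, stood at 93.4% ± 2.85 in muscle and 81.1% ± 8.84 in testis with overlap (adjusted p = 0.00717).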
